A study of Mus musculus with 13 samples.

Results

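In 4T1 cells, 240 genes had an H3K4me3 peak within 4 kb of the transcription start site (TSS) in the peak list of Nup210 KO cells and none in the list of sg-Ctrl cells. They made up 1.89% of the 12693 genes with such a peak in at least 1 of the lists, beside 256 genes (2.02%) listed in sg-Ctrl alone and 12197 listed in both. The members were chosen by this difference in listing, so their H3K4me3 values are given as a description, and the other marks, gene length and promoter sequence as measurements the choice did not use. In 101 of the 240, the peak lay over the TSS, wholly inside the 8 kb window around it, and met no listed sg-Ctrl peak. These included Gprc5c, an orphan G protein-coupled receptor, Gnao1, the alpha subunit of the G protein Go, Lifr, a receptor subunit for leukaemia inhibitory factor, and Asic1, an acid-sensing ion channel.

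The study asked how loss of NUP210, a membrane-anchored protein of the nuclear pore, alters the chromatin of 4T1, a metastatic mammary tumour line from a BALB/cJ mouse. Chromatin was immunoprecipitated and sequenced (ChIP-seq) for the histone marks H3K4me3 and H3K27me3 in both lines, and in sg-Ctrl also with antibodies to NUP210 and, as NPC, to several pore proteins together. The KO cells were a single CRISPR/Cas9 clone, KO-N13, grown from 1 sorted cell with an sgRNA against a Nup210 exon, and sg-Ctrl cells carried a non-targeting sgRNA. Both received their sgRNA by lentivirus under puromycin and Cas9 by transient adenovirus, and both were collected after 48 h in culture. Each antibody had 1 library per condition. A difference between libraries therefore has no replicate check, and loss of Nup210, the history of 1 clone and the handling of 1 library cannot be told apart.

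H3K4me3 is a histone mark laid down around active and poised gene starts, where CpG-rich promoters carry it most readily. H3K27me3 is deposited by Polycomb repressive complex 2 over silent genes, often over developmental and lineage-restricted genes, and promoters that carry both marks are called bivalent.

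To show the kinds of promoter that gained a listed peak, 6 sequences are given, each the 250 bases before the RefSeq gene start on GRCm38.p6, read 5′ to 3′ with every CpG in capitals. They come from the 20 members with most KO reads among those with an enclosed peak over the TSS and a RefSeq promoter starting within 50 bp of the listed TSS, and are the 3 promoters with the highest and the 3 with the lowest observed to expected CpG ratio. Lifr, Gnao1 and Tnfrsf11a, which encodes the receptor RANK, had 31 to 43 CpG, and Rufy4, Rnf182 and Tmod2 had 3 to 5.
Lifr (chr15:7129322-7129571, plus strand, 43 CpG): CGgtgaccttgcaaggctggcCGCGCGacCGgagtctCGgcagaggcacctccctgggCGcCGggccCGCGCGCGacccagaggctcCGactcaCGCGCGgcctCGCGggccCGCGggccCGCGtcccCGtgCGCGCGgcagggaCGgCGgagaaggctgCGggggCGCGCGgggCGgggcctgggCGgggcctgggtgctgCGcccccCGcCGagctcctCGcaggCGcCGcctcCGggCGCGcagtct
Gnao1 (chr8:93810588-93810837, plus strand, 36 CpG): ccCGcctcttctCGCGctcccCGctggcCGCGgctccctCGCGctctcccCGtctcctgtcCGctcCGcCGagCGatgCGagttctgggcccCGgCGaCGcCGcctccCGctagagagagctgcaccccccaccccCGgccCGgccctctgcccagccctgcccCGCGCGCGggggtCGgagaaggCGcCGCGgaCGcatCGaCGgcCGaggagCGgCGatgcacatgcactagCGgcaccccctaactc
Tnfrsf11a (chr1:105780473-105780722, plus strand, 31 CpG): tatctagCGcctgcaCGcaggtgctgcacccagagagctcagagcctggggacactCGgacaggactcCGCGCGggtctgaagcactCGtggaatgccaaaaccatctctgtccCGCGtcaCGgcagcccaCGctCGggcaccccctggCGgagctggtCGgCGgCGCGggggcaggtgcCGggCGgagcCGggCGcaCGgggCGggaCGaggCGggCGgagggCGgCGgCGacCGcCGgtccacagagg
Rufy4 (chr1:74125291-74125540, plus strand, 3 CpG): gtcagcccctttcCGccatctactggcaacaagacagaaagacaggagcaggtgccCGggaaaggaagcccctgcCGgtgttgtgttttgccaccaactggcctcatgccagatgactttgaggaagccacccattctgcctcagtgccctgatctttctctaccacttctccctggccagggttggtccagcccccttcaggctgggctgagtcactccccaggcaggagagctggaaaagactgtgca
Rnf182 (chr13:43615547-43615796, plus strand, 5 CpG): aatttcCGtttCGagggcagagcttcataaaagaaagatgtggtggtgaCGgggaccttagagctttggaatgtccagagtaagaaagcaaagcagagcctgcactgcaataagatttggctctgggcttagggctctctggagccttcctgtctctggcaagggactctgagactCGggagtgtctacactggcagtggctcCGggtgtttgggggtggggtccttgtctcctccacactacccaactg
Tmod2 (chr9:75611326-75611575, minus strand, 5 CpG): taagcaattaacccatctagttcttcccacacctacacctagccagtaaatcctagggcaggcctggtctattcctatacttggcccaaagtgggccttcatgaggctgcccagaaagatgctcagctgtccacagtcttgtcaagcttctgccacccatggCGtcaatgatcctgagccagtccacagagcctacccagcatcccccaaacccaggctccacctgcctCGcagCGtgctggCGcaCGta

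Of 181 listed microRNA genes 11 were members (6.08%, beside 1.89% of all listed genes) and 14 were in sg-Ctrl alone. The 11 included 5 whose KO peak lay wholly within 4 kb of their start, and 5 of the 14 had such a sg-Ctrl peak. Of the 5 members 4, all but Mir466f-2, were matched to RefSeq. Their 7 mature RNAs are printed with the seed, bases 2 to 8, in capitals, and no seed was shared. Positions are those of RefSeq on GRCm38.p6.
mmu-miR-1192 (chr19:23149450-23149471, plus strand): aAACAAACaaacagaccaaauu
mmu-miR-152-5p (chr11:96850400-96850423, plus strand): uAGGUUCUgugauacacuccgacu
mmu-miR-152-3p (chr11:96850439-96850459, plus strand): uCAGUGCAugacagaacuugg
mmu-miR-196a-5p (chr15:102973365-102973386, plus strand): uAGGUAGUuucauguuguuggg
mmu-miR-196a-2-3p (chr15:102973401-102973422, plus strand): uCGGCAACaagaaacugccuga
mmu-miR-214-5p (chr1:162223397-162223418, plus strand): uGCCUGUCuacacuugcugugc
mmu-miR-214-3p (chr1:162223438-162223459, plus strand): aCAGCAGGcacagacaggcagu

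The KO H3K4me3 list held 10854 distinct peaks with 24873356 reads and the sg-Ctrl list 11018 with 26236314, and the KO library was 1.27 times as deep by the ratio to the shared IgG control. Over the 12197 genes in both lists, reads per kb scaled to library size were lower in KO, with a median log2 ratio of -0.50, and peaks were wider (medians of 4200 and 3600 bp). The H3K27me3 library of KO was 3.16 times as deep as that of sg-Ctrl. Nup210 itself kept a TSS peak of 885 reads in sg-Ctrl and 913 in KO, which does not check the knockout, since the sgRNA targets an exon and not the promoter. Of 8 luminal epithelial markers 7 had H3K4me3 in both lists, as did 3 of 5 mesenchymal, 1 of 4 basal and 1 of 5 immune markers, and 0 of 3 endothelial and 0 of 3 neural markers.

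The 240 genes used 223 distinct KO peaks, which fell into 3 kinds by position. In 177 genes the peak lay wholly inside the 8 kb window around the TSS, so no listed sg-Ctrl peak touched it: 101 covered the TSS and 76 lay beside it. In 27 genes the peak ran past the window and met no listed sg-Ctrl peak, and in 1 of them, Trpm8, a cold-sensing channel, it also covered the TSS. The sg-Ctrl list holds no peak outside all windows, so for 24 of the 27 a control peak touching the site from outside could not be seen. The other 3, 4930488L21Rik, Hoxc10 and Spib, had peaks wholly inside another gene's window. In the last 36 genes the KO peak overlapped a listed sg-Ctrl peak. The genes in sg-Ctrl alone split into 207, 38 and 11 in the same order, and 132 of their 207 covered the TSS.

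**Figure D1:**
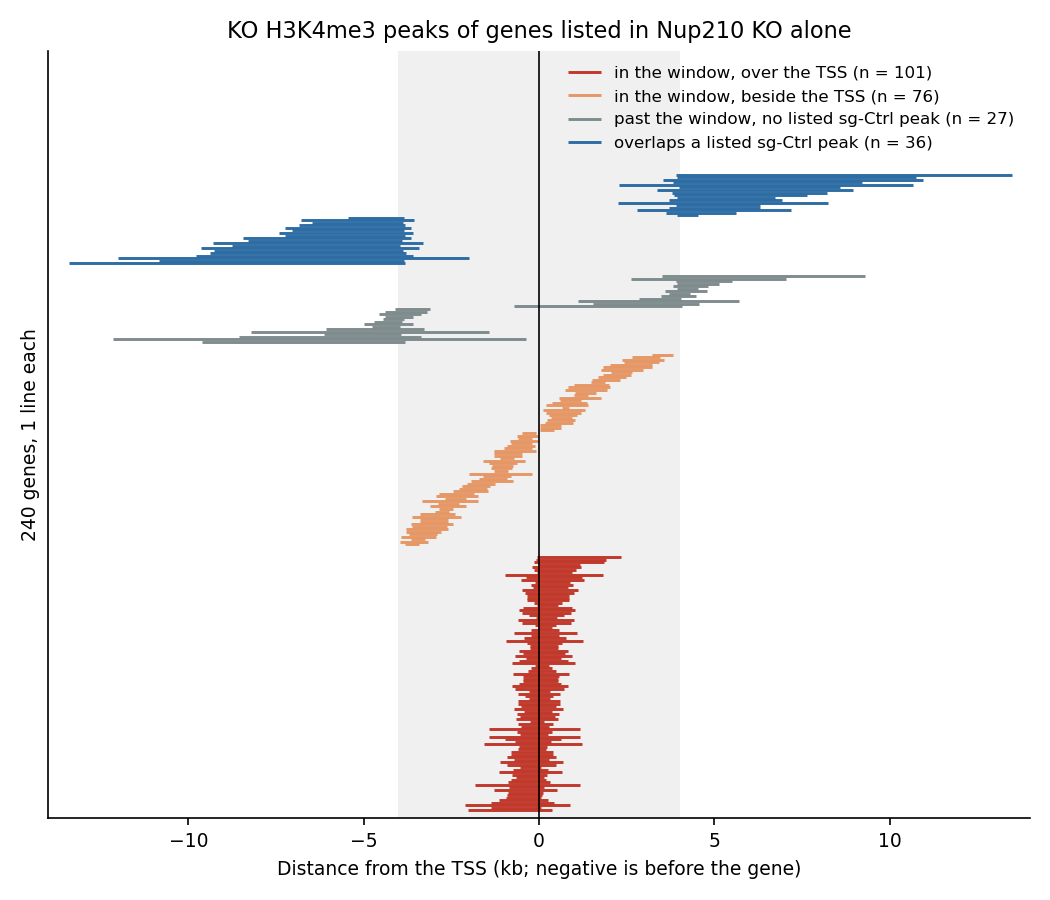
KO H3K4me3 peaks of the 240 genes, 1 line per gene, against distance from the TSS in kb, with the 8 kb window shaded. The 101 red lines cross the TSS, the 76 orange lines lie beside it, and the 27 grey and 36 blue lines reach past the window, most of them near its edge.

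The 36 genes at a shared site were listed in KO through a peak that belongs to a neighbour. All 36 KO peaks were also assigned to a gene listed in both conditions, and each overlapped 1 sg-Ctrl peak. The KO peak came within 1993 to 3992 bp of the member's TSS (median 3810 bp) and the sg-Ctrl peak stopped 4015 to 5605 bp away (median 4235 bp), just beyond the window. KO peaks were wider in 29, equal in 3 and narrower in 4, while scaled reads per kb at the site had a median log2 ratio of -0.42 (-1.53 to 0.26). At 6430706D22Rik, next to Hjurp, 17027 sg-Ctrl reads lay in 5800 bp and 12897 KO reads in 10000 bp. Mir24-2 and Mir3074-2, on opposite strands of 1 locus, shared a KO peak of 6070 reads with Mir23a and Mir27a, where sg-Ctrl had 4948 reads. Foxp3, the transcription factor of regulatory T cells, and Hoxa11, which patterns limbs and the reproductive tract, were members by such peaks of 808 and 2776 reads, 3876 and 3367 bp from their starts. At these genes the listing differed by where a neighbour's peak ended, not by whether the site was marked.

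At the 101 genes with an enclosed KO peak over the TSS, meaning one wholly inside the window, the marked stretch was short and weak. KO reads per peak ran from 37 to 550 with a median of 105, against a median of 2170 for genes listed in both. Read density had a median of 88.3 reads per kb, against 515 for genes listed in both. In sg-Ctrl the peak list gives no value at these sites, so no fold change between conditions can be given.

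The 10 genes with most reads in this group were named after their values were seen. Gprc5c had 550 KO reads (95% Poisson interval 505 to 598) against 9 in IgG, over 2200 bp around its TSS at chr11:114851532. Gnao1 had 412 reads (373 to 454) over 3000 bp at chr8:93810838, and this peak also reached the window of 4930488L21Rik, a locus without a gene name on the opposite strand. Lifr had 394 reads (356 to 435) over 2800 bp at chr15:7129572. These peaks stood 45.3-fold, 21.8-fold and 10.1-fold over scaled IgG in the same order.

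Asic1 followed with 340 reads, Plekhg6 with 329, and Tmod2, a neuronal cap of actin filaments, with 304. Prtg, an immunoglobulin-family receptor of the embryo, had 282 reads and Lrp4, a receptor for agrin at the neuromuscular junction, had 245. Map1a, which binds microtubules in neurons, had 204 reads and Ahrr, a repressor of the aryl hydrocarbon receptor, had 203. All 10 peaks lay at least 6.06-fold over scaled IgG.

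**Figure D2:**
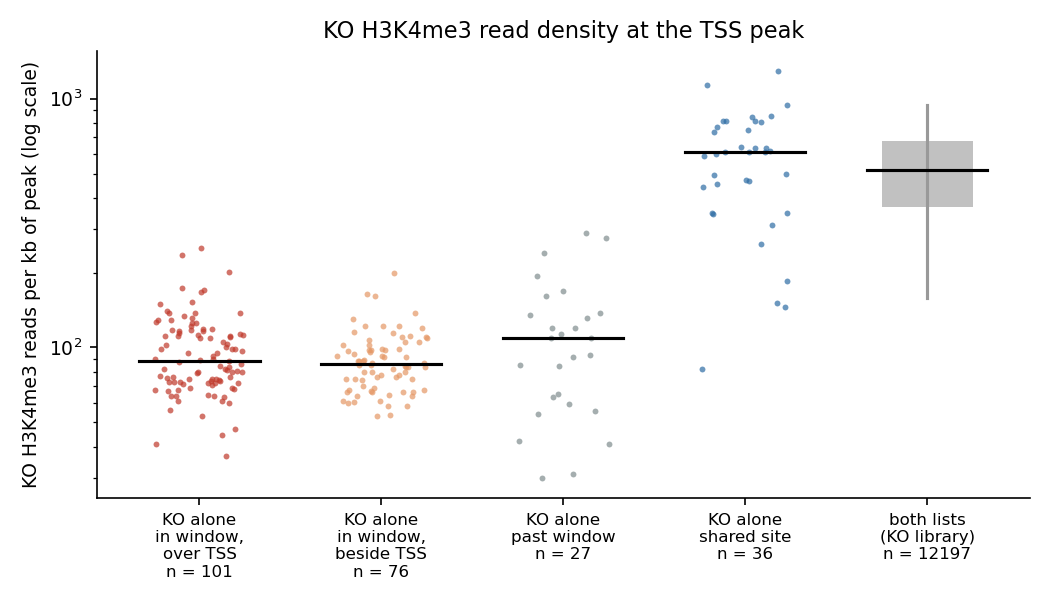
KO H3K4me3 reads per kb of the TSS peak on a log axis, 1 point per member, with black bars for medians; for the 12197 genes in both lists the box spans the middle 50% and the line the 5th to 95th percentile. Members whose peaks lay in the window sat at medians of 88.3 and 85.6 reads per kb, and shared-site members at 611, near the 515 of genes in both lists.

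Among members without a sg-Ctrl overlap, the counts above 1000 reads came from peaks that ran past the window. Phxr4 had 1992 reads over 11800 bp, but IgG held 780 there and the fold was 1.90. Evi5, a regulator of Rab GTPases, had 1593 reads starting 3507 bp into its gene, and Gpr84, a receptor for medium-chain fatty acids on myeloid cells, had 1056 reads 2638 bp from its start. For these 3 genes a control peak just outside the window cannot be told apart from none.

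The weakest members were Cnga3, a cyclic nucleotide-gated channel subunit of cones, Pdzk1ip1 and Slc4a5, a bicarbonate transporter, each with 37 KO reads (95% Poisson interval 26.1 to 51.0). The Cnga3 peak held 29 IgG reads and was 0.947 times scaled IgG. Genes just outside the rule had equally few sg-Ctrl reads: Gm13280, Ifna2 and Scnn1g, an epithelial sodium channel subunit, had 30 each and Sox18 had 32, and all were listed in both conditions. In all, 118 of the 240 had under 100 KO reads, 17 were under 2-fold over IgG and 7 had an FDR above 0.05. For 86 members IgG held 0 reads, where the deposited fold was computed from 0.25 reads and has no use as a ratio. When KO reads of the 177 enclosed peaks were divided by the depth ratio of 1.27 and set beside listed sg-Ctrl peaks of equal width, 176 had at least 20 such peaks. Of these, 10 fell below the lowest listed sg-Ctrl peak, 44 below the 5th percentile and 151 below the median. For the lowest of them, a site of the same strength might not have entered the sg-Ctrl list.

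By function, the members were spread thinly: 15 of 27 gene lists held at least 1, and 164 of the 240 genes were in none. Set beside the 1.89% of all listed genes that were members, 6 of 21 listed potassium channel genes (28.6%) were members, with 2 in sg-Ctrl alone. Kcnj4, an inward rectifier, had the most reads over its TSS (190) and Kcnq1, a cardiac and epithelial channel, had 61 over its TSS. Kcnmb4, Kcnj12 and Kcnn3, a calcium-activated channel, had 56, 58 and 70 reads beside the TSS, while Kcnj14 was at a shared site. Among 9 sodium and calcium channel genes 3 were members: Cacna1g, a T-type channel, with 140 reads over the TSS, Cacnb4 with 67 over the TSS and Scn2b with 55 near the window's edge.

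The list of developmental transcription factors gave 7 members of 77 (9.09%) and 2 in sg-Ctrl alone, but no KO peak of the 7 covered a TSS. Hoxa11 and Foxp3 were at shared sites, and Hoxb6 and Hoxc10 had peaks that ran past the window (105 and 194 reads). Of the 7, only Hoxc12, Lhx2 and Msx2 had enclosed peaks, of 86, 78 and 102 reads at 1253, 2908 and 2621 bp before the gene. The list does not hold every such factor: Neurog2, a member outside it, had an enclosed peak of 132 reads over its TSS. The peak of Hoxc10 was also the one counted for Mir196a-2, which lies downstream of it in the HoxC cluster and whose start was 1750 bp away. Mir152 had a peak of 49 reads 193 bp before it, the same peak that covered the TSS of its neighbour Copz2, and Mir214 and Mir1192 had 90 and 117 reads after their starts.

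Among the receptors and ligands, Il27ra, a subunit of the interleukin 27 receptor, had 165 reads over its TSS and Il20ra had 95. They were 2 of the 30 genes in the interleukin list (6.67%), where sg-Ctrl alone held 0. Beside 1.89% and 2.02% of all listed genes, counts this small say little. Wnt5a, a secreted ligand of non-canonical Wnt signalling, had 133 reads ending 73 bp before its start, and Fgf18 had 109 ending 201 bp before. Solute carriers gave 5 members of 195 (2.56%), near the share of all listed genes, and 6 genes in sg-Ctrl alone. Zinc finger proteins gave 1 member of 361 (0.277%), Zfp467, and 4 genes in sg-Ctrl alone. None of the 14 collagen, 18 integrin, 15 chemokine or 9 listed study genes was a member, where sg-Ctrl alone held 0, 1, 3 and 4. The 4 study genes were Ccl2, Cxcl3, Itga7 and Postn, which the paper picked for promoter H3K4me3 loss in KO cells and lower expression after knockdown. Their place in sg-Ctrl alone is therefore no separate finding, and Itga7, Ccl2 and Cxcl3 are counted again among the integrins and chemokines. Beside 1.89% of all listed genes, 0 members in lists this short says little. Unnamed loci made up 30 members of 1099 (2.73%). Peaks at the protocadherins Pcdhb14 and Pcdhb16, at 3 olfactory receptors and at Mir466n and Mir466f-2 lie in multigene families. How reads that fit several copies were counted is not given in the sources used here, so these assignments are uncertain.

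H3K27me3 lay over the bodies of the members more often than over listed genes in general. In sg-Ctrl 81 of 240 (33.8%, 95% Wilson interval 28.1 to 39.9) had a listed H3K27me3 peak, against 6.33% of all 12693 genes, and in KO 77 (32.1%, 26.5 to 38.2) against 5.19%. Of the 101 genes with an enclosed peak over the TSS, 45 (44.6%, 35.2 to 54.3) were marked in sg-Ctrl and 39 (38.6%, 29.7 to 48.4) in KO. Genes with H3K4me3 in sg-Ctrl alone lay between, at 57 of 256 (22.3%, 17.6 to 27.8) and 58, and genes in both lists stood at 5.46% and 4.30%. These intervals, like all others here, cover counting error only. With the requirement that H3K27me3 cover at least 50% of the body, the members' shares fell to 15.4% in sg-Ctrl and 12.9% in KO, against 2.25% and 2.06% of all listed genes.

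Gene length moved with H3K27me3, and the members stood above genes in both lists at each length. In the shortest of 4 length classes, up to 7.59 kb, 13.5% of members and 2.60% of genes in both lists had H3K27me3 in sg-Ctrl. In the longest class, above 45.05 kb, the shares were 67.7% (44 of 65) and 11.1%, with 51.7% of genes in sg-Ctrl alone between them. Weak H3K4me3 is shared by both groups listed in 1 condition, and its part in these shares was not tested.

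**Figure D3:**
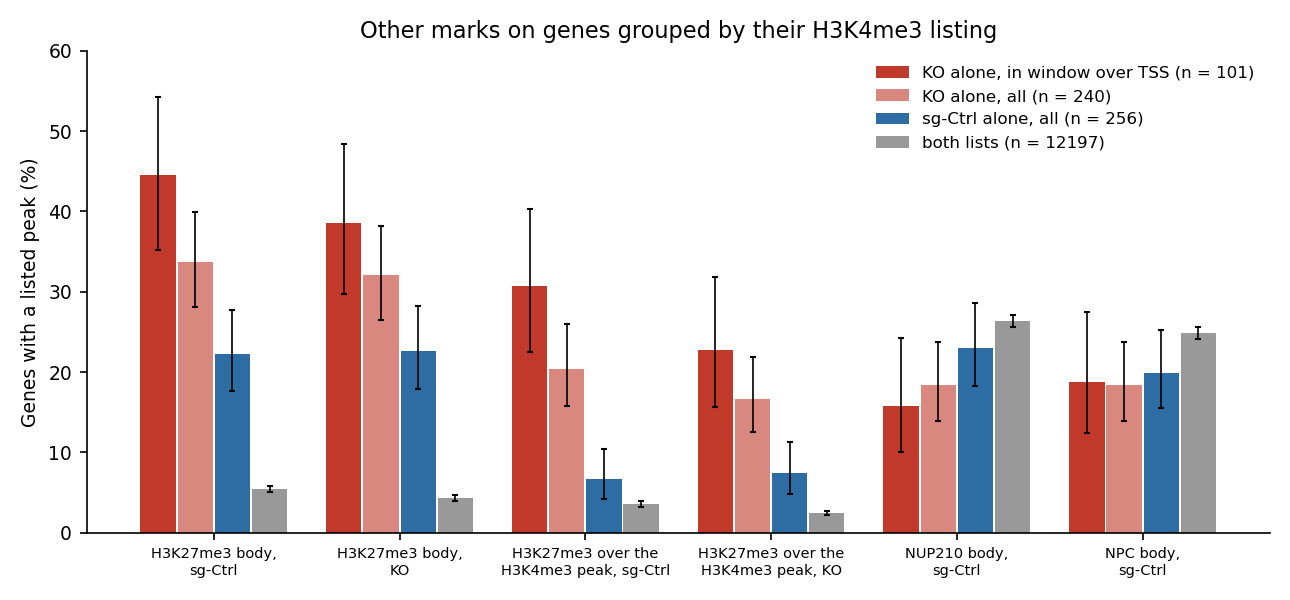
Share of genes (%) with a listed peak of each mark, grouped by H3K4me3 listing, with 95% Wilson intervals as error bars. Red bars stand highest for H3K27me3 in both conditions (44.6% and 38.6% on the body) and below the grey bars for NUP210 and NPC.

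At the H3K4me3 peak itself, H3K27me3 overlapped the site in sg-Ctrl for 49 members (20.4%, 15.8 to 26.0; 3.95% of all genes) and in KO for 40 (16.7%, 12.5 to 21.9; 2.84% of all genes). Of the 240 members, 34 kept H3K27me3 at the site, 15 had it in sg-Ctrl alone and 6 in KO alone. Over all listed genes, 1.73% had it in sg-Ctrl alone and 0.615% in KO alone. Of the 256 genes with H3K4me3 in sg-Ctrl alone, 7 had H3K27me3 at the site in sg-Ctrl alone and 9 in KO alone. Peaks of genes in both lists, although wider, overlapped H3K27me3 in 3.57% in sg-Ctrl and 2.47% in KO. The 15 sites with H3K27me3 in sg-Ctrl alone were all enclosed peaks and 13 covered the TSS: Lifr, Tmod2, Prtg, Lrp4, Map1a, Rnf182, Igdcc3, Ppm1e, Gm4861, Alox8, Jazf1, Camk4 and Grp. At these starts the lists read H3K27me3 without H3K4me3 in sg-Ctrl and H3K4me3 without H3K27me3 in KO, where the H3K4me3 part follows from how members were chosen. They were named after their values were seen. As a share of the sites marked in sg-Ctrl, 15 of 49 (30.6%, 19.5 to 44.5) were not marked in KO, beside 198 of 436 (45.4%, 40.8 to 50.1) for genes in both lists.

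On the whole body, 67 members had H3K27me3 in both conditions. In sg-Ctrl alone it was on 14 (5.83% of members, beside 1.85% of all genes), and in KO alone on 10 (4.17%, beside 0.709%). Of the 256 genes with H3K4me3 in sg-Ctrl alone, 11 (4.30%) had H3K27me3 in sg-Ctrl alone and 12 (4.69%) in KO alone. These shares are therefore not particular to the members. Enox1, an NADH oxidase, had 34.0 kb under H3K27me3 in sg-Ctrl, in a peak of 979 reads, and none listed in KO. Lifr followed with 17.5 kb of its 55.8 kb body and Lrp4 with 15.5 kb. Nsun7 had 10 kb and Gnao1 9.00 kb, the latter not over the H3K4me3 peak. All 5 had their KO H3K4me3 peak over the TSS. Of body-marked members 17.3% (10.6 to 26.9) had no H3K27me3 peak in KO, beside 31.5% (28.1 to 35.2) of genes in both lists. Genes with H3K4me3 in sg-Ctrl alone stood at 19.3% (11.1 to 31.3).

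In the other direction, Trim67, a brain ubiquitin ligase, had 13 kb of H3K27me3 in KO and none listed in sg-Ctrl. Satb1, an organiser of chromatin loops, had 10 kb and Syt3, a synaptotagmin, 6.88 kb. Mir466n and Scn2b had 6 and 3.07 kb. The KO peaks of Trim67 and Syt3 lay over both the TSS and the H3K27me3, so at these starts both marks were listed in KO and neither in sg-Ctrl. The H3K4me3 part of this follows from how members were chosen. The KO H3K27me3 library was 3.16 times as deep, and the part of depth in these H3K27me3 listings was not tested.

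Among members marked in both conditions, the 5 with the longest cover in sg-Ctrl were long genes. Trpm3, a cation channel, had 637 kb in sg-Ctrl and 733 kb in KO over its longest body in each H3K27me3 list, which runs past the isoform of the H3K4me3 lists, and Tenm2, a teneurin of synapses, had 514 and 378 kb. Pclo, a scaffold of the presynaptic zone, had 280 and 307 kb, Nebl 242 and 356 kb, and Sntb1, a syntrophin, 237 and 243 kb. Tmem232, next in sg-Ctrl, had 230 kb and 244 kb. The H3K4me3 peaks of the 5 held 50 to 127 KO reads.

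**Figure D4:**
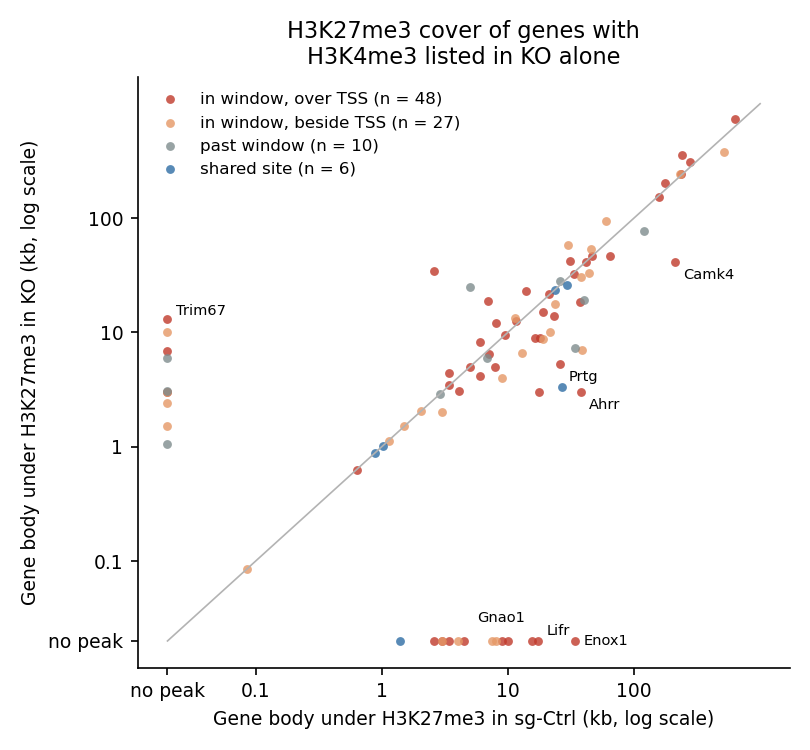
Kilobases of gene body under H3K27me3 in sg-Ctrl (x) and KO (y) on log axes for the 91 members marked in at least 1 condition, with genes without a listed peak at the no-peak position and the line of equality in grey. Of the 67 marked in both, 32 lie below the line, 21 above and 14 on it, with Camk4, Ahrr and Prtg among those below.

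Among the 67, scaled H3K27me3 reads per kb had a median log2 KO to sg-Ctrl ratio of -0.17 (-1.36 to 0.72), close to the -0.13 of all 4234 genes marked in both, and were higher in 24. At least 2-fold lower were 3 of the 67 members, beside 0.921% of the 4234 genes. Among genes with H3K27me3 in both conditions, it was 13 of 456 with H3K4me3 in both lists and 0 of 46 in sg-Ctrl alone. So few members do not set the group apart. The 3 members were Snph, a brake of axonal mitochondria, at -1.36, Camk4, a calcium-dependent kinase, at -1.32, and Radil at -1.03. None of the 67 was at least 2-fold higher, which says little beside 0.307% of the 4234 genes. Camk4 had 210 kb covered in sg-Ctrl and 41.0 kb in KO. Ahrr fell from 38.0 to 3 kb and Prtg from 26.0 to 5.31 kb, while Nebl gained cover. The median covered length was 21.0 kb in sg-Ctrl and 13.5 kb in KO, beside 15.1 and 14 kb for the genes with H3K4me3 in both lists, and cover was longer in KO in 21 of the 67 and in 38.3% of all 4234 genes. By total scaled reads per gene the members' median was -0.30 against 0.13 over all 4234 genes, and with libraries scaled on shared peaks the medians were -0.29 and -0.25.

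Over all lengths together, NUP210 and NPC were listed less on the members than on genes at large, in lists whose peaks mostly stood near IgG. The median fold over IgG was 1.19 for NUP210 and 1.10 for NPC. An FDR above 0.05 was held by 4093 of 13204 NUP210 peaks and 5427 of 11234 NPC peaks. In sg-Ctrl 44 of 240 had NUP210 on the body (18.3%, 13.95 to 23.7) against 26.1% of all listed genes, and 44 had NPC against 24.7%. Genes with H3K4me3 in sg-Ctrl alone stood at 23.0% (18.3 to 28.6) for NUP210 and 19.9% (15.5 to 25.2) for NPC. Their intervals overlap those of the members, so the low shares are not particular to the members. In the longest length class 33.8% of members and 55.5% of genes in both lists had NUP210, and in the shortest 11.2% and 7.30%. A NUP210 peak of at least 2-fold over IgG lay on 5 members (2.08%), against 1.38% of all listed genes. With so few members, whether the lower share held for these stronger peaks cannot be told. The 5 were Satb1 at 3.18, Nebl at 2.44, Pclo at 2.33, Camk4 at 2.27 and Tmem232 at 2.16. No member had an NPC peak of that strength, and with 0 of 240 allowing a share of up to 1.25% this cannot be told from the 0.197% of all listed genes. Of the 5 genes, 4 carried H3K27me3 in both conditions and Satb1 in KO alone.

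A RefSeq promoter of 300 bases, 250 before and 50 after the start, was matched to 171 members. CpG richness, counted as an observed to expected CpG ratio of at least 0.6, differed with where the peak lay. It held for 45 of 73 promoters with an enclosed peak over the TSS (61.6%, 50.2 to 71.9) and for 13 of 58 with one beside it (22.4%, 13.6 to 34.7). Over all members it held for 35.7% (28.9 to 43.1), against 77.7% of genes in both lists and 35.8% of all 32851 promoters. Genes in sg-Ctrl alone with an enclosed peak over the TSS stood at 28 of 80 (35.0%, 25.5 to 45.9), below the KO group. Among the 45 CpG-rich promoters, 22 genes (48.9%, 35.0 to 63.0) had H3K27me3 in sg-Ctrl, beside 10 of 28 (35.7%, 20.7 to 54.2) of the CpG-poor ones. Genes in sg-Ctrl alone with an enclosed peak over the TSS had the same order, 5 of 28 (17.9%, 7.88 to 35.6) and 5 of 52 (9.62%, 4.18 to 20.6). The order is thus not particular to the members, and the intervals of rich and poor overlap in both groups. In genes of both lists the shares were 3.97% and 8.35%. Lifr and Gnao1, whose sequences stand above, were CpG rich and marked in sg-Ctrl, Tnfrsf11a was CpG rich and unmarked, Rnf182 and Tmod2 were CpG poor and marked, and Rufy4 was CpG poor and unmarked.

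**Figure D5:**
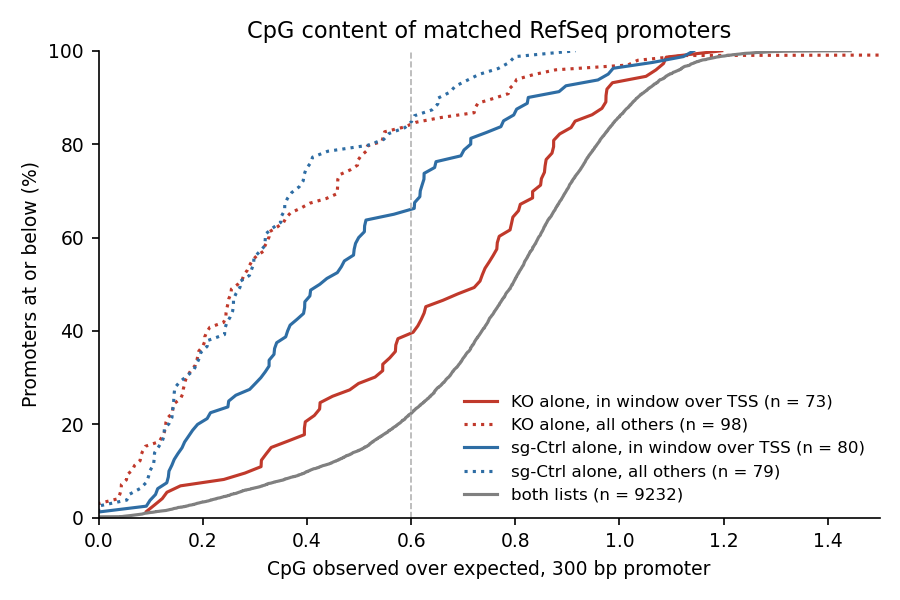
Cumulative share of matched promoters (%) against the observed to expected CpG ratio of 300 bases, by H3K4me3 listing, with the dashed line at 0.6. The solid red line, members with an enclosed peak over the TSS, runs between genes in both lists in grey and their sg-Ctrl-alone counterparts in solid blue, and 1 promoter, that of Asmt at 5.29, lies beyond the axis limit of 1.5.

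Short motifs were counted in the matched promoters, TATAAA on the strand of the gene only and TGACTCA on both strands. CGCG and CACGTG read the same on either strand. CGCG, which overlaps the CpG count, occurred in 47 of 73 promoters with an enclosed peak over the TSS (64.4%, 52.9 to 74.4), in 75.2% of genes in both lists and in 38.0% of all promoters. TATAAA occurred in 5 of the 73 (6.85%, 2.96 to 15.1) against 13.6% of all promoters, CACGTG in 5 (6.85%) against 7.15%, and TGACTCA, the AP-1 site, in 4 (5.48%, 2.15 to 13.3) against 5.20%. Over sg-Ctrl-alone genes TGACTCA occurred in 18 of 159 (11.3%, 7.28 to 17.2), beside 8 of 171 members (4.68%, 2.39 to 8.96).

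The members came from each of the 20 chromosomes with at least 100 listed genes, at 0.811% to 3.68% of the listed genes of each. Chromosome 15 gave the highest share, 19 of 516 genes, with Lifr, Asic1, Kcnj4, Gpr84 and Hoxc10 among them, and chromosome 13 the lowest, 4 of 493. Genes in sg-Ctrl alone were distributed otherwise, at 6 and 17 on these chromosomes. 4T1 cells are aneuploid, and copy number was not measured here. Over the 20 chromosomes the members' share had a Spearman correlation of 0.13 with the median H3K4me3 log2 ratio of genes in both lists, and that of sg-Ctrl-alone genes -0.52, as a description of chromosomes of the same libraries.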

How the data were processed

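ChIP-seq peak lists of 6 libraries from 4T1 cells were analysed (both histone marks in each line, NUP210 and NPC in sg-Ctrl). The RNA libraries of the series were not analysed here. The submitters' processing notes name Bowtie2 and several builds without their roles. The authors called peaks with SICER, at a window size of 200 bp (H3K4me3) or 1000 bp (H3K27me3, NUP210), and deposited 1 list per library, joined to gene windows of 4 kb on each side of the TSS or to gene bodies. Each deposited line gives the read count in the ChIP and IgG libraries, a p-value and an FDR, and the fold ratio over IgG scaled to library size. Listed gene starts lay at those of GRCm38: 92.3% of matched promoters were within 50 bp.

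A gene was a member if its symbol was in the KO H3K4me3 list and not in the sg-Ctrl list. Of several peaks at 1 start the densest in reads stood for the gene, overlap meant at least 1 bp, and gene length was the longest in the H3K4me3 lists, and H3K27me3 cover was taken over the longest body in the H3K27me3 list. Library ratios came from counts and deposited folds, and scaled the reads. With 1 library per condition no test was run. Shares carry 95% Wilson intervals and read counts exact 95% Poisson intervals, which cover counting error only. The genes named were the members with most and fewest reads, with the longest H3K27me3 cover in each condition, with the highest NUP210 fold, or in the gene lists; those added later are marked. The members and lists were chosen with earlier results of these data known. The scripts were tested on simulated data. Python 3.11.15, numpy 2.4.6, pandas 2.3.3 and scipy 1.17.1 were used. Stricter peaks, other member sets and other scalings were tried as alternatives.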

Additional observations from a re-analysis of the deposited data

How the results depend on the processing

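Across 12 results and 61 alternatives, 51 values stayed within 1.5 times the count or within the 95% interval of the value reported, 10 moved and 0 reversed. A reversal meant a change of sign, which only the median log2 H3K27me3 ratio could show. The 0 therefore says nothing of the other results. The number of knockout-alone genes ranged from 179 with peaks over the TSS to 264 with at least 50 ChIP reads when both lists were filtered, but 102 of the 179 and 219 of the 264 were among the 240 members. With at least 100 ChIP reads, chosen after seeing the data, 55 of the 101 genes with an enclosed peak over the TSS were left. Only H3K27me3 peaks of at least 2-fold left 23.8% of members marked in KO, and cover of at least 50% of the body left 15.4% in sg-Ctrl and 12.9% in KO. For NUP210 the share was 12.1% at an FDR of at most 0.01, 2.08% at a fold of at least 2 and 8.33% at 50% cover, and for NPC 10.4%, 0% and 7.50%. The 15 members with H3K27me3 over the peak in sg-Ctrl alone became 14 to 18. No paired analysis was possible because each antibody had 1 library per condition.

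The lists hold only called peaks, so sg-Ctrl reads at the members' sites are unknown, and a site just under the calling threshold in sg-Ctrl and just over it in KO counts as a difference. RNA levels of the members were not analysed here.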
